A study of Arabidopsis thaliana with 4 samples.

Results

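Messenger RNA of 10 Arabidopsis genes of gibberellin metabolism and perception was followed across 4 RNA-seq libraries of root tips. The genes were picked by their locus codes from a deposited table of 33602 genes. They comprise the gibberellin 2-oxidases GA2OX1 (AT1G78440), GA2OX2 (AT1G30040), GA2OX6 (AT1G02400) and GA2OX8 (AT4G21200), the gibberellin 20-oxidases GA20OX1 (AT4G25420) and GA20OX2 (AT5G51810), the gibberellin 3-oxidase GA3OX1 (AT1G15550), and the receptors GID1A (AT3G05120), GID1B (AT3G63010) and GID1C (AT5G27320). Wild-type Col-0 seedlings aged 5 days were moved to fresh agar medium that held either 0.5 µM narciclasine or none, and the terminal 3 mm of the roots was cut off after 2 h or 12 h. Narciclasine is an alkaloid of daffodil bulbs that binds the ribosome and slows protein synthesis in eukaryotic cells. The 4 groups were control 2 h, narciclasine 2 h, control 12 h and narciclasine 12 h, with 1 library each, made from a weighed pool of excised tips. All groups shared the genotype, the growth medium and the transfer to new plates.

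Gibberellins are plant hormones that promote cell division and cell elongation in the root. Their last steps of synthesis are run by 2-oxoglutarate-dependent oxygenases. The 20-oxidases oxidise the early gibberellins stepwise and remove a carbon, the 3-oxidases then make the bioactive forms, and the 2-oxidases inactivate bioactive forms or their precursors. A bioactive gibberellin binds a GID1 receptor, which then binds a DELLA protein, a repressor of growth genes, and marks it for breakdown through an F-box protein. In plants well supplied with gibberellin, many genes of synthesis and of the receptors are repressed by gibberellin signalling, and many 2-oxidase genes are induced by it.

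The stretches upstream of 3 members are shown first, 1 for each role, namely the member with the largest called ratio at 12 h among the 2-oxidases (GA2OX2), the genes of synthesis (GA20OX2) and the receptors (GID1B). On TAIR10.1 (RefSeq sequence), GA2OX2 lies at chr1:10537457-10540044 on the plus strand, GA20OX2 at chr5:21055179-21056881 on the minus strand and GID1B at chr3:23289243-23291486 on the plus strand. The 250 bases before each annotated start are chr1:10537207-10537456 for GA2OX2, chr5:21056882-21057131 for GA20OX2 and chr3:23288993-23289242 for GID1B. Each is printed 5′ to 3′ on the strand of the gene, and capitals mark a match to a motif searched.
GA2OX2: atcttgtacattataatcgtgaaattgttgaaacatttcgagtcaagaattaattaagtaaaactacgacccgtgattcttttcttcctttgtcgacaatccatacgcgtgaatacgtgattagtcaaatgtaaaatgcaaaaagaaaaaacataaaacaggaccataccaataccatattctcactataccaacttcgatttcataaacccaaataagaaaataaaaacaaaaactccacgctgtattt
GA20OX2: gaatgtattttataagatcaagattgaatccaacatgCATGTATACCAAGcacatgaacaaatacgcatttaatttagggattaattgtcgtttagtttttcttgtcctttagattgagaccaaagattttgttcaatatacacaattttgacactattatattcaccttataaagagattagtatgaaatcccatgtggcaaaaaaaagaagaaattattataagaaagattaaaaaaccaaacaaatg
GID1B: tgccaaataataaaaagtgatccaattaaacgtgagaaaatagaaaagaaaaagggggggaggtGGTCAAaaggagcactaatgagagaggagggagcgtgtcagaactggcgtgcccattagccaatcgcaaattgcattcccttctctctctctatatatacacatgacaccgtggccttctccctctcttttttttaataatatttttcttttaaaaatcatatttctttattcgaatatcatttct
Motifs were searched on both strands. They were the G-box CACGTG, the W-box form TTGACC bound by WRKY factors, the as-1 core TGACG bound by TGA factors, and CTTGNNNNNCANG. The last is a loose form of the mitochondrial dysfunction motif bound by NAC factors of mitochondrial stress. Any base was allowed before its final G. TTGACC and TGACG share the letters TGAC but need different bases after them. The GA20OX2 window held a match to this loose form on the opposite strand, 213 bases before the start. On that strand the base before its final G was T. A stricter form of the motif was not searched. The GID1B window held TTGACC on the opposite strand, 186 bases before the start. The GA2OX2 window held none of the 4 patterns as searched, and other forms of the W-box were not searched. Among 27443 annotated genes with a window of the same length, 1.75% held the mitochondrial dysfunction motif, 12.2% held TTGACC, 18.6% held TGACG and 6.49% held CACGTG. Of the other 7 members, GA2OX1 held TGACG 213 bases before its start and GID1C held it on the opposite strand 80 bases before its start. A match describes letters and says nothing of binding.

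The libraries held between 11880278 and 14724075 reads, as recovered from the deposited RPKM values (reads per kilobase of gene and scaled to library size), and 97.5% to 98.0% of these lay on genes. A level below is an RPKM value, scaled by gene length, with an exact 95% Poisson interval on its reads. The gene lengths that the authors used are not given, and the intervals do not cover error in them. Of 24200 matched genes above 0, 15.7% had a length implied by their reads that is or divides an annotated one (transcript or merged exons). Orders and sums across genes below thus rest on the authors' lengths. A fold compares the reads of 1 gene in 2 libraries scaled by trimmed means of log ratios (TMM), with an exact 95% counting interval. With 1 library per group there is no spread between replicates, no test between conditions and no p-value, so intervals cover counting error only and compare libraries. A gene is called higher or lower where it differed at least 2-fold and its interval left out 1. Of the 10 members 9 reached 1 CPM (a read count scaled to library size) in at least 1 library and entered the counts, and GA2OX1 did not. GA20OX1 entered through 15 reads in control 2 h, the library where it was highest.

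The libraries were checked against markers of root cell types. All 5 root meristem markers, among them WOX5 of the quiescent centre and the PLETHORA factors, and all 4 root cap markers were above 0 in every library. Of 5 shoot photosynthesis markers, LHCB1.1 and LHCB2.1 were at 0 in at least 1 library, and the other 3 were above 0 in every library. These 5 summed to 47.7 RPKM in control 12 h, above the 34.2 RPKM of the root cap markers there. All 10 members were found in the annotation by locus code, and none overlaps another annotated gene. In their exons 100.0% of the 50-base windows were unique in the genome.

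In untreated tips the receptor GID1B and the 2-oxidase GA2OX6 had the highest levels of the 10 genes. In control 2 h GA2OX6 stood at 28.3 RPKM and GID1B at 26.7 RPKM, with overlapping intervals. GA3OX1 at 15.1 RPKM followed, then GID1A, GA20OX2 and GID1C between 7.76 and 10.2 RPKM, whose neighbours in the order overlapped. GA2OX8, GA2OX2, GA20OX1 and GA2OX1 lay between 0.787 and 2.34 RPKM, and each overlapped the next. In control 12 h GA2OX6 (45.9 RPKM) stood clear of GID1B (26.6 RPKM), and GID1A, GID1C and GA3OX1 followed with overlapping intervals between 10.5 and 11.9 RPKM.

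With narciclasine the order changed. In narciclasine 2 h GA2OX8 and GA2OX2 had joined GA3OX1, GID1A and GID1C in a run of overlapping neighbours between 8.77 and 14.6 RPKM. In narciclasine 12 h GA2OX2 was the highest of the 10 genes at 119 RPKM, GID1B was next at 72.3 RPKM and GA2OX6 followed at 33.2 RPKM, and none of these intervals overlapped. GA20OX2 had dropped to 0.679 RPKM there, below GA3OX1 and GA2OX8 and above GA2OX1 and GA20OX1, which were at 1 read each.

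**Figure D1:**
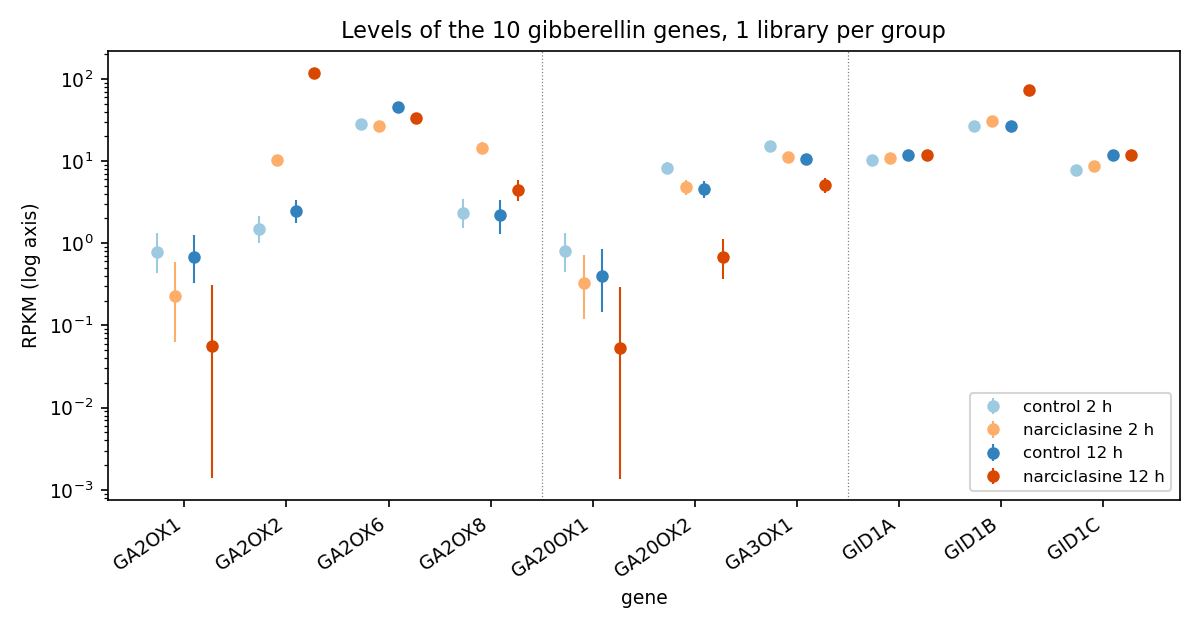
Level of each of the 10 genes in the 4 libraries, in RPKM on a log axis, with bars for the exact 95% Poisson interval and dotted lines between 2-oxidases, 20- and 3-oxidases, and receptors. GA2OX2 climbs from 2.45 RPKM in control 12 h to 119 RPKM in narciclasine 12 h, GA20OX2 sinks from 4.51 to 0.679 RPKM, and GID1A and GID1C stay between 7.76 and 11.9 RPKM.

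The 2-oxidases did not move as a block. GA2OX2, which inactivates gibberellins of the bioactive, shorter skeleton, measured 1.5 RPKM (1.01 to 2.15, 30 reads) in control 2 h, 10.4 RPKM (9.06 to 12.0, 204 reads) in narciclasine 2 h, 2.45 RPKM (1.75 to 3.34, 40 reads) in control 12 h and 119 RPKM (114 to 124, 2397 reads) in narciclasine 12 h. Both narciclasine libraries lay above both controls, and the later of them above the earlier. The narciclasine library was 6.77-fold higher (4.60 to 10.3) than its control at 2 h and 46.8-fold higher (34.3 to 65.7) at 12 h. Of 19381 genes compared, 134 had a larger ratio at 2 h and 53 at 12 h.

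GA2OX8, which acts on the longer precursor gibberellins, had its highest level early. It measured 2.34 RPKM (25 reads) in control 2 h, 14.6 RPKM (153 reads) in narciclasine 2 h, 2.18 RPKM (19 reads) in control 12 h and 4.44 RPKM (48 reads) in narciclasine 12 h. The interval of narciclasine 2 h overlapped that of no other library. GA2OX8 was 6.09-fold higher (3.97 to 9.70) at 2 h, a ratio that 153 genes exceeded, and 1.97-fold higher (1.14 to 3.55) at 12 h, just under the 2-fold threshold. At 12 h its call depended on the scaling, since the log2 ratio was 0.98 with TMM, 1.03 with library size alone and 1.02 with the median of ratios. The length implied by its reads, 734 bases, is shorter than its longest coding sequence of 1017 bases, so its true reads are probably a multiple of those given and its intervals too wide.

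GA2OX6, the most abundant 2-oxidase in both controls, measured 28.3 RPKM (552 reads) in control 2 h, 26.9 RPKM (513 reads) in narciclasine 2 h, 45.9 RPKM (730 reads) in control 12 h and 33.2 RPKM (654 reads) in narciclasine 12 h. The 2 h libraries overlapped, while control 12 h stood above the other 3. The narciclasine library was 0.925 times its control at 2 h (0.818 to 1.04) and 1.43-fold lower (1.28 to 1.59) at 12 h, and neither passed 2-fold. Against control 2 h, narciclasine 12 h was 1.16-fold higher (1.04 to 1.3), so the direction turned with the control chosen.

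GA2OX1 was scarcely detected. It measured 0.787 RPKM (14 reads) in control 2 h, 0.229 RPKM (4 reads) in narciclasine 2 h, 0.688 RPKM (10 reads) in control 12 h and 0.0555 RPKM (1 read) in narciclasine 12 h. Both narciclasine libraries were below both controls by the point values, with overlapping intervals between some of them. The ratios were 3.52-fold lower (1.1 to 14.7) at 2 h and 12.8-fold lower (1.82 to 556) at 12 h, from reads under the filter, so the gene stands in no count.

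Of the 3 genes of synthesis, GA20OX2 and GA3OX1 were called lower at 12 h, none was called at 2 h, and GA20OX1 was called at neither time. GA20OX2 measured 8.25 RPKM (7.05 to 9.60, 168 reads) in control 2 h, 4.81 RPKM (3.90 to 5.88, 96 reads) in narciclasine 2 h, 4.51 RPKM (3.55 to 5.65, 75 reads) in control 12 h and 0.679 RPKM (0.371 to 1.14, 14 reads) in narciclasine 12 h. Narciclasine 12 h was lowest and control 2 h highest, and narciclasine 2 h overlapped control 12 h. The gene was 6.86-fold lower (3.85 to 13.2) at 12 h, with 466 of the 19381 genes at a smaller ratio. At 2 h it was 1.76-fold lower (1.36 to 2.28), short of the threshold.

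GA3OX1 measured 15.1 RPKM (276 reads) in control 2 h, 11.3 RPKM (203 reads) in narciclasine 2 h, 10.5 RPKM (157 reads) in control 12 h and 5.08 RPKM (94 reads) in narciclasine 12 h. Its order over the libraries was that of GA20OX2, with a smaller span. It was 1.37-fold lower (1.14 to 1.65) at 2 h and 2.14-fold lower (1.65 to 2.79) at 12 h, where it passed the threshold. That call was lost on the log2(RPKM + 1) scale, where its log2 ratio was -0.92, and where the whole interval had to lie beyond 2-fold.

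GA20OX1 measured 0.805 RPKM (15 reads) in control 2 h, 0.329 RPKM (6 reads) in narciclasine 2 h, 0.394 RPKM (6 reads) in control 12 h and 0.0530 RPKM (1 read) in narciclasine 12 h. Its point values had the same order as those of GA20OX2 except for the middle pair, whose intervals overlapped. The ratios were 2.51-fold lower (0.921 to 7.90) at 2 h and 7.69-fold lower (0.932 to 354) at 12 h. Both intervals include 1, so a difference was not detectable at this depth.

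**Figure D2:**
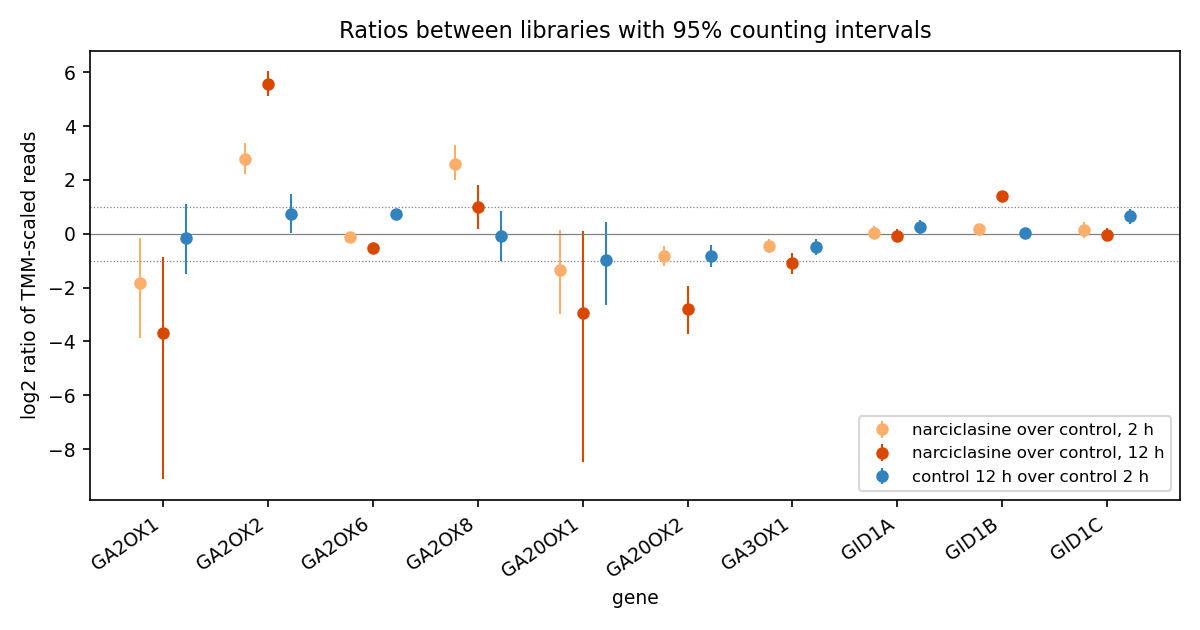
Log2 ratios of TMM-scaled reads for each of the 10 genes, narciclasine over control at 2 h and at 12 h and control 12 h over control 2 h, with 95% counting intervals and dotted lines at 2-fold. At 12 h GA2OX2 stands at 5.55, GID1B at 1.40, GA3OX1 at -1.10 and GA20OX2 at -2.78, while no ratio between the controls passes 2-fold in either direction.

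Of the 3 receptor genes GID1B alone was called. It measured 26.7 RPKM (24.8 to 28.8, 722 reads) in control 2 h, 30.9 RPKM (28.8 to 33.1, 817 reads) in narciclasine 2 h, 26.6 RPKM (24.5 to 28.8, 586 reads) in control 12 h and 72.3 RPKM (69.1 to 75.5, 1976 reads) in narciclasine 12 h. Narciclasine 12 h stood far above the other 3 libraries, which lay close together. The receptor was 2.63-fold higher (2.40 to 2.89) at 12 h and 1.13-fold higher (1.02 to 1.25) at 2 h.

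GID1A measured 10.2 RPKM in control 2 h, 10.8 RPKM in narciclasine 2 h, 11.9 RPKM in control 12 h and 11.7 RPKM in narciclasine 12 h, from 247 to 300 reads. GID1C measured 7.76 RPKM in control 2 h, 8.77 RPKM in narciclasine 2 h, 11.8 RPKM in control 12 h and 11.9 RPKM in narciclasine 12 h, from 188 to 293 reads. Within a time the control and narciclasine intervals overlapped for both genes. The narciclasine to control ratios of GID1A were 1.03 (0.865 to 1.23) at 2 h and 0.948 (0.799 to 1.13) at 12 h. Those of GID1C were 1.1 (0.899 to 1.35) and 0.977 (0.820 to 1.17). Against the control of the same time, a change in either gene beyond 1.35-fold thus lies outside the counting intervals. Against control 2 h, GID1C in narciclasine 12 h was 1.53-fold higher (1.27 to 1.85).

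Summed by role, the transcripts of the 4 GA2OX members came to 33.0 RPKM in control 2 h, 52.2 RPKM in narciclasine 2 h, 51.2 RPKM in control 12 h and 156 RPKM in narciclasine 12 h. GA2OX6 made up 86.0% and 89.6% of that sum in the 2 h and 12 h controls, 51.5% in narciclasine 2 h and 21.2% in narciclasine 12 h. GA2OX2 made up 4.56% and 4.79% in the controls, 20.0% in narciclasine 2 h and 75.9% in narciclasine 12 h, so the leading 2-oxidase transcript differed between control and narciclasine at 12 h. The 20- and 3-oxidase members summed to 24.2, 16.5, 15.4 and 5.82 RPKM in control 2 h, narciclasine 2 h, control 12 h and narciclasine 12 h. The sum of these 4 GA2OX members over that of these 3 members of synthesis was 1.36 in control 2 h, 3.17 in narciclasine 2 h, 3.32 in control 12 h and 26.9 in narciclasine 12 h. The ratio depends on the genes chosen. Over all 7 listed 2-oxidases and all 9 listed 20- and 3-oxidases it was 0.839, 1.75, 2.19 and 12.7 in the same order, highest in narciclasine 12 h with either choice.

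The receptor transcripts summed to 44.7 RPKM in control 2 h, 50.5 RPKM in narciclasine 2 h, 50.3 RPKM in control 12 h and 95.9 RPKM in narciclasine 12 h. GID1B made up 59.8%, 61.2%, 52.8% and 75.3% of these sums in the same order of libraries. Sums over a role weigh the abundant genes most and are given with no interval.

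**Figure D3:**
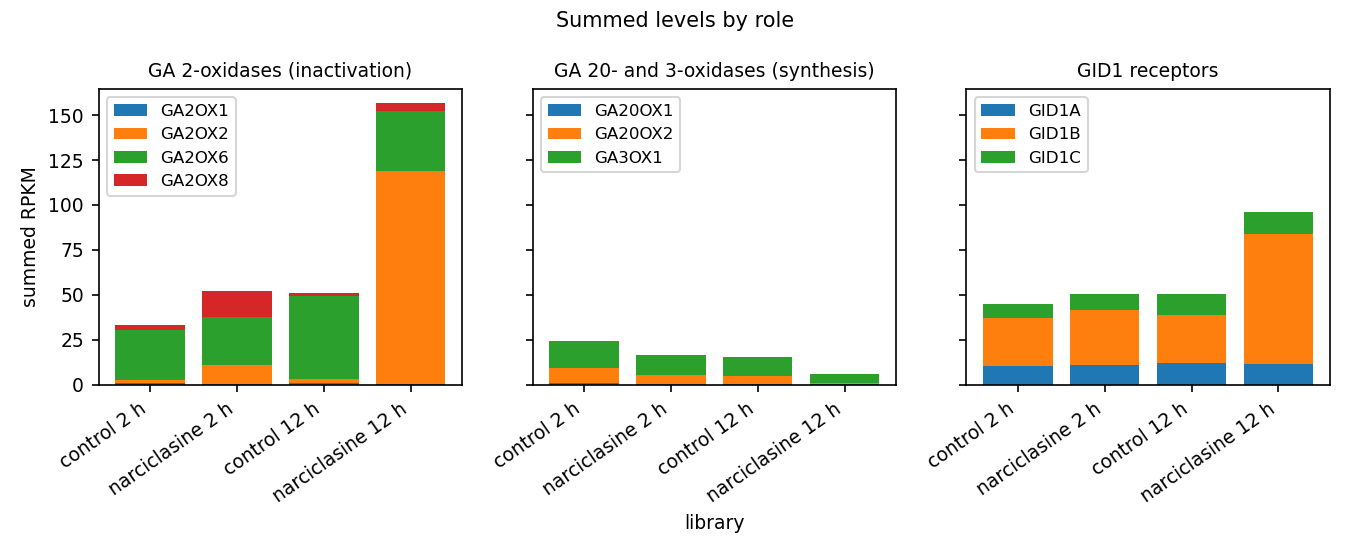
Summed RPKM of the 2-oxidases, of the 20- and 3-oxidases and of the GID1 receptors in each library, stacked by gene and on 1 shared axis that starts at 0. GA2OX2 forms 75.9% of the 2-oxidase bar in narciclasine 12 h, and the bar of the 20- and 3-oxidases is 15.4 RPKM in control 12 h and 5.82 RPKM there.

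Counted over the 9 members compared, narciclasine 2 h against control 2 h gave 2 higher, GA2OX2 and GA2OX8, and 0 lower. Over all 19381 genes, 4.74% were higher and 2.06% lower by the same rule. The median log2 ratio was 0.04 over the members and -0.00 over all genes. Both genes that differed inactivate gibberellins, and the receptors and genes of synthesis did not pass the threshold at this time.

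Narciclasine 12 h against control 12 h gave 2 higher, GA2OX2 and GID1B, and 2 lower, GA20OX2 and GA3OX1. Over all genes 11.6% were higher and 16.5% lower. The median log2 ratio was -0.08 over the members and -0.04 over all genes. At this time a gene of inactivation and a receptor were higher and a gene from each of the last 2 steps of synthesis was lower. With 2 of 9 members called in each direction, the counts are too small to set the members apart from all genes. The medians also lay close together. The calls thus describe single genes and not a shift of the members as a set. In tissue pooled from many cell types, fewer cells that express a gene and less RNA per cell cannot be told apart.

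**Figure D4:**
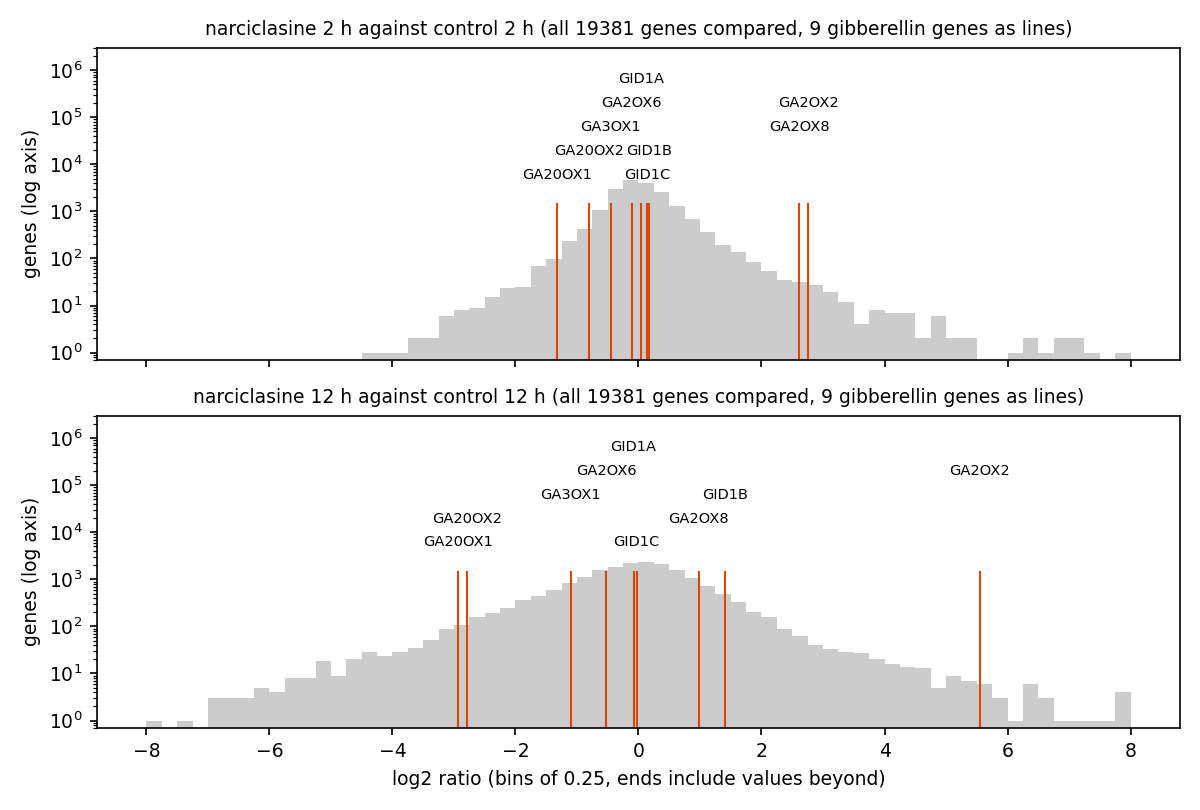
Number of genes (log axis) in bins of the log2 ratio of narciclasine over control, at 2 h above and 12 h below, for all 19381 genes compared, with the 9 members as lines. GA2OX2 lies in the upper tail at both times, with 134 and 53 genes beyond it, whereas GID1A and GID1C lie near the centre.

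The time course of the members was uneven. Between the narciclasine libraries, 12 h against 2 h, GA2OX2 was 11.6-fold higher (10 to 13.4) and GID1B 2.39-fold higher (2.20 to 2.59). GA2OX8 was 3.23-fold lower (2.32 to 4.57), GA20OX2 6.95-fold lower (3.95 to 13.2) and GA3OX1 2.19-fold lower (1.71 to 2.83). Over all genes 8.01% were higher and 15.9% lower. Between the controls, 12 h against 2 h, 0 of the 9 members were called in either direction, against 4.33% of all genes higher and 1.68% lower.

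The control ratios were smaller than 2-fold but not all near 1. GA2OX2 was 1.68-fold higher (1.02 to 2.79), GA2OX6 1.66-fold higher (1.49 to 1.86) and GID1C 1.57-fold higher (1.29 to 1.91) in control 12 h than in control 2 h. GA20OX2 was 1.78-fold lower (1.35 to 2.37) and GA3OX1 1.40-fold lower (1.15 to 1.71). The ratio of GA20OX2 between the controls was thus close to its 1.76-fold between narciclasine 2 h and control 2 h. These comparisons share the control 2 h library.

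The ratio of ratios sets the 12 h difference against the 2 h difference, with a normal 95% counting interval. GA2OX2 was 6.91-fold higher (4.22 to 11.3) and GID1B 2.34-fold higher (2.04 to 2.68) by this measure. GA2OX8 was 3.09-fold lower (1.57 to 6.09) and GA20OX2 3.90-fold lower (2.09 to 7.28). GA3OX1 was 1.57-fold lower (1.14 to 2.14) and was not called. Over all genes 7.96% were higher and 15.9% lower. The difference with narciclasine grew from 2 h to 12 h for GA2OX2, GID1B and GA20OX2 and shrank for GA2OX8.

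Setting each narciclasine library against the control of the other time showed which calls hold against either control. Narciclasine 2 h against control 12 h gave the same 2 genes higher, GA2OX2 at 4.04-fold (2.86 to 5.82) and GA2OX8 at 6.37-fold (3.94 to 10.9), against 6.40% of all genes higher and 5.84% lower. GA20OX2 at 1.01-fold (0.741 to 1.39) and GA3OX1 at 1.02-fold (0.827 to 1.27) were then level with the control. Narciclasine 12 h against control 2 h gave GA2OX2 at 78.4-fold (54.8 to 117) and GID1B at 2.69-fold (2.47 to 2.93) higher, where 12.4% of all genes were higher. Lower there were GA20OX2 at 12.2-fold (7.09 to 22.8) and GA3OX1 at 2.99-fold (2.36 to 3.82), where 16.8% of all genes were lower. GA20OX1 was also called lower there, at 15.3-fold (2.35 to 643), from 1 read against 15. It passed the filter only through that same control 2 h library, which favours a lower call. Against control 12 h it was not called.

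A further 38 genes of the gibberellin pathway were examined from a list, of which 27 passed the filter. At 2 h 2 were higher and 1 lower, with a median log2 ratio of 0.16, beside 4.74% of all genes higher and 2.06% lower. At 12 h 3 were higher and 10 lower, with a median of -0.25, beside 11.6% of all genes higher and 16.5% lower, so the share higher was near that of all genes. Between the controls 0 were higher and 1 lower, beside 4.33% and 1.68%.

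By role, 2 of the 4 measured genes of the early steps, those that make ent-kaurene and turn it into the first gibberellin, were lower at 12 h (16.5% of all genes) and 0 at 2 h (2.06%). KAO2 was among them, an ent-kaurenoic acid oxidase, and measured 4.67 RPKM in control 2 h, 3.72 in narciclasine 2 h, 4.05 in control 12 h and 1.02 in narciclasine 12 h, or 4.12-fold lower (2.67 to 6.54) at 12 h. Of 3 other measured 20- and 3-oxidases, 1 was lower at 2 h and 2 at 12 h, beside the same shares of all genes. GA20OX5 was lower at both times, 2.37-fold (1.59 to 3.61) at 2 h and 5.76-fold (1.19 to 54.8, 2 reads against 9) at 12 h. Both calls were lost on the log2(RPKM + 1) scale and where the whole interval had to lie beyond 2-fold. The gene differed also between the controls, at 5.05 RPKM in control 2 h and 0.654 RPKM in control 12 h. Narciclasine 2 h at 2.18 RPKM lay between these controls.

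Of the other genes of inactivation only the cytochrome P450 genes ELA1 and ELA2 could be compared, and both were lower at 12 h, opposite in direction to GA2OX2. ELA1 measured 13.0 RPKM in control 2 h, 15.9 in narciclasine 2 h, 12.0 in control 12 h and 5.20 in narciclasine 12 h, or 2.39-fold lower (1.94 to 2.97) at 12 h. ELA2 measured 2.81, 4.26, 2.48 and 0.0817 RPKM in the same order, or 31.4-fold lower (8.24 to 266) at 12 h, from 2 reads against 49. So the measured genes of inactivation did not share a direction at 12 h.

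The DELLA genes encode the proteins that the GID1 receptors bind. RGA, the most abundant, measured 27.7 RPKM in control 2 h, 40.1 in narciclasine 2 h, 24.3 in control 12 h and 28.1 in narciclasine 12 h. GAI measured 9.04, 11.9, 8.10 and 6.41 RPKM in that order, and RGL1 measured 3.31, 5.20, 3.60 and 3.67 RPKM. Neither of these nor RGA passed 2-fold at either time, although all 3 had a 2 h interval above 1. RGL3 measured 2.15, 6.27, 2.21 and 1.08 RPKM, and was 2.84-fold higher (2.12 to 3.85) at 2 h and 2.12-fold lower (1.34 to 3.40) at 12 h. RGL2 measured 3.36, 3.90, 3.99 and 1.44 RPKM, and was 2.85-fold lower (1.98 to 4.17) at 12 h. The call of RGL3 at 12 h was lost on either log2 scale with a pseudocount.

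Of the 9 DELLA genes and their regulators together, 2 were higher at 2 h, above the share of all genes (4.74%). At 12 h 1 was higher (11.6%) and 2 lower (16.5%), near the shares of all genes. SNE, an F-box homologue of the protein that recruits DELLA proteins for breakdown, was 2.05-fold higher (1.12 to 3.90, 35 reads against 17) at 2 h. That call was lost with upper-quartile scaling and with an assumed coefficient of variation of 0.2. SNE was also the gene higher at 12 h, 2.54-fold (1.12 to 6.48, 26 reads against 8), a call lost with that coefficient and against control 2 h, where its log2 ratio was 0.59.

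Of 9 measured DELLA partners and gibberellin-responsive genes, 0 were called at 2 h, and 2 were higher and 2 lower at 12 h, beside 11.6% of all genes higher and 16.5% lower. The higher 2 were SCL3 at 2.23-fold (1.94 to 2.58) and NPF3.1 at 2.69-fold (1.25 to 6.42, 31 reads against 9). The call of NPF3.1 was lost against control 2 h, where its log2 ratio was 0.54. GASA14 was not called at 12 h, at 0.867 times its control (0.608 to 1.24). The lower 2, GASA4 and GASA1, encode small cysteine-rich peptides whose transcripts rise with gibberellin in many tissues. GASA4 measured 766 RPKM in control 2 h, 577 in narciclasine 2 h, 532 in control 12 h and 15.8 in narciclasine 12 h, or 34.8-fold lower (29.3 to 41.8) at 12 h. GASA1 measured 699, 798, 1194 and 185 RPKM in the same order, or 6.67-fold lower (6.34 to 7.03) at 12 h. Narciclasine 12 h was the lowest library for both by a wide margin.

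**Figure D5:**
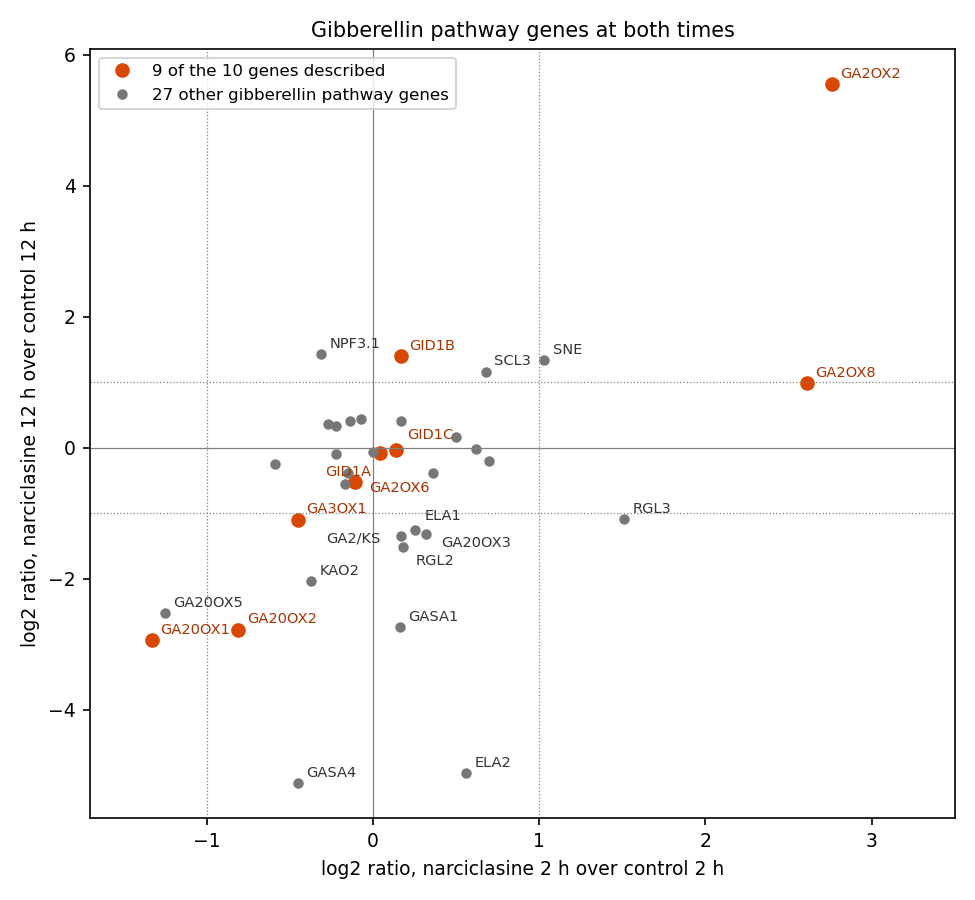
Log2 ratio of narciclasine over control at 2 h (horizontal) and 12 h (vertical) for the 9 members and 27 other gibberellin pathway genes, with dotted lines at 2-fold. GA2OX2 lies far up and to the right, GA20OX2, GA20OX1 and GA20OX5 lie low and to the left, and RGL3 lies right of the 2 h line at 1.51 and below the 12 h line at -1.09.

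The genes most like the 3 most variable members were sought among 18962 coding genes by the Euclidean distance between centred log2 patterns over the 4 libraries. GA2OX2, with a log2 range of 5.98, was nearest to AT3G24780 at a distance of 0.60, to the alanyl-tRNA synthetase gene EMB1030 (AT5G22800) at 0.70 and to the threonyl-tRNA synthetase gene AT1G17960 at 0.73. EMB1030 measured 1.55 RPKM in control 2 h, 9.25 in narciclasine 2 h, 2.20 in control 12 h and 181 in narciclasine 12 h. GA20OX2, with a range of 3.06, was nearest to AT3G13175 at 0.11, to the SNARE-like gene AT3G09800 at 0.15 and to the cell wall transglycosylase gene XTH26 (AT4G28850) at 0.17. XTH26 measured 30.5, 17.9, 19.2 and 3.66 RPKM in the same order of libraries. GA2OX8, with a range of 2.36, was nearest to DFD (AT3G55630) at 0.13, to the GRAS family gene AT1G07520 at 0.22 and to the nitrate transporter gene NRT2.6 (AT3G45060) at 0.28. Some of these genes had few reads, where the 0.5 CPM added before the log weighs on the distance. In the same order of libraries NRT2.6 had 0, 23, 0 and 3 reads and DFD had 7, 57, 4 and 15. AT3G24780 had 1 read in control 2 h. With 4 libraries such a likeness is a description of these samples.

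Markers of some cell types moved along with the 12 h differences, and meristem markers with time. The 5 root hair markers summed to 451 RPKM in control 2 h, 454 in narciclasine 2 h, 443 in control 12 h and 145 in narciclasine 12 h, with 4 of the 5 lower at 12 h. The 6 endodermis markers summed to 786, 758, 885 and 432 RPKM in the same order, with 3 lower at 12 h, and the 5 xylem markers to 124, 129.7, 133 and 80.0 RPKM, with 2 lower. Of the 5 root meristem markers 0 were lower and 1 higher at 12 h, and 1 was lower at 2 h. Their sum was 79.6 RPKM in control 2 h, 88.5 in narciclasine 2 h, 44.6 in control 12 h and 46.1 in narciclasine 12 h, so it differed between the times in controls and narciclasine alike. The 4 root cap markers summed to 48.5, 39.1, 34.2 and 27.3 RPKM in the same order, with 0 called at either time. The 5 shoot photosynthesis markers summed to 18.2, 11.7, 47.7 and 9.0 RPKM and the 3 phloem markers to 16.1, 23.4, 12.9 and 12.5 RPKM, with 3 and 1 lower at 12 h. The part of these shifts in the differences of the gibberellin genes was not tested.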

How the data were processed

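RNA of root tips was sequenced with the standard Illumina protocol, per the labels' protocols, in 1 library per group. Each deposited file gives RPKM per gene (reads relative to gene length and library size), computed by the authors, per the file headers. Bowtie 0.12.2 and edgeR are named in the submitters' processing notes, along with mm8, a mouse build. As the identifiers are Arabidopsis locus codes, the authors' build is unclear. How reads were counted, and whether strand was used, is not given in the sources used here. Of 33602 identifiers 32835 matched TAIR10.1 by locus code, and the coordinates and sequences are that annotation's.

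Whole reads were recovered from the deposited RPKM values for 100.0% of 24396 genes above 0, with reads per base matched to a fraction within a tolerance of 1e-11. A tolerance of 0.0002 served only to find the library sizes. A common factor of a gene's reads cannot be seen, so reads may be too low and intervals too wide. Reads were scaled by TMM (trims of 30% and 5%), and a gene was compared if any library reached 1 CPM. Intervals are exact Clopper-Pearson (folds), exact Poisson (levels) or normal (ratio of ratios) at 95%. Reads from amplified libraries are not separate molecules, and the intervals describe counting error alone. No replicate existed, so no p-value was computed. The recovery was tested on simulated data. The tools were scipy 1.17.1, numpy 2.4.6 and pandas 2.3.3 under Python 3.11.15, with matplotlib 3.10.9 for plots.

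The members, the pathway and marker lists and the call rule were chosen with earlier results of these data known. All 10 members are named. Of the other pathway genes, the DELLA genes are named, with up to 6 called ones per narciclasine comparison, ordered by the interval bound nearest to 1. The 3 genes nearest in pattern (with 0.5 CPM added before the log) to each of 3 members are named too. SCL3, NPF3.1 and GASA14 are given besides, to show gibberellin-responsive genes that were higher or not called. Alternatives covered scaling, filters of none and of 5 CPM, thresholds of 1.5-fold and 4-fold, the interval rule, an assumed coefficient of variation of 0.2, read multiples, pseudocounts of 1 and 0.1 on RPKM and the control of the other time. A further alternative, reads raised to at least the coding length, was chosen after seeing the data. Protein comparisons were not made here.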

Additional observations from a re-analysis of the deposited data

Results flagged for a closer look

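Among the pathway genes examined, 7 had narciclasine to control ratios of opposite sign at 2 h and 12 h, each with a counting interval that left out 1, and none of them was a member. The difference was not tested, since there is 1 library per group. Given as the log2 ratio at 12 h minus that at 2 h, it was -5.54 for ELA2, -1.51 for ELA1, -2.59 for the DELLA gene RGL3, -0.74 for the DELLA gene GAI and -2.89 for GASA1, all above 1 early and below 1 late. It was 0.63 for GA3/KO, the ent-kaurene oxidase gene, and 0.54 for SEC, a glycosyltransferase gene that modifies DELLA proteins, both below 1 early and above 1 late. Of these, RGL3 passed 2-fold at both times, and GAI, GA3/KO and SEC at neither.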

How the results depend on the processing

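No paired analysis was possible because each group holds 1 library. For the same reason no library could be left out. Of 958 gene ratios recomputed under the alternatives, 935 stayed within the original counting interval and 23 moved outside it. Most could hardly move. Filters, fold thresholds, the interval rule and the assumed coefficient leave a ratio as it is, and read multiples nearly cancel. Against the control of the other time 17 of 44 moved outside, and on the log2(RPKM + 1) scale 6 of 71. With the other scalings and the pseudocount of 0.1, 0 of 71 did in each. Over all alternatives the sign changed in 20, of which 12 were against the control of the other time. Of called ratios, that of GA20OX5 at 2 h changed sign, to a log2 ratio of 1.66 against control 12 h, and the controls themselves differed for it. Among uncalled ratios of members, that of GA2OX6 at 12 h went from -0.52 to 0.22. That of GID1C went from 0.14 to -0.51 at 2 h and from -0.03 to 0.61 at 12 h. GID1A turned from 0.04 to -0.22 at 2 h and from -0.08 to 0.19 at 12 h. At 2 h GA20OX2 went from -0.81 to 0.02 and GA3OX1 from -0.45 to 0.03. A 4-fold threshold left 2 members at 12 h, 2 between the narciclasine libraries and 1 in the ratio of ratios, in place of 4, 5 and 4. A 1.5-fold threshold called 4 members between the controls, in place of 0. The shares of all genes at 4-fold and 1.5-fold are not given here, so these counts cannot be read against a background.

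Among the other pathway genes at 2 h the count of 3 became 7 at 1.5-fold, 0 at 4-fold, 1 with the whole interval beyond 2-fold and 1 on the log2(RPKM + 1) scale. At 12 h the count of 13 became 5 at 4-fold, 4 with the whole interval beyond 2-fold and 7 on the log2(RPKM + 1) scale. Between the controls 1 became 3 at 1.5-fold, and in the ratio of ratios 10 became 4 at 4-fold. The fold thresholds and the pseudocount shift these counts by their own construction, and the shares of all genes under these settings are not given here.

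No scaling moved the median of all genes by more than 0.05 (log2). With no filter GA2OX1 was lower at both times. Depth limits GA2OX1 and GA20OX1, at 1 read each in narciclasine 12 h. Spread between plants or plates cannot be seen in these data.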
